A study of Homo sapiens with 6 samples.

Results

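The 35 genes described here are transcriptional targets of the tumour suppressor p53 other than CDKN1A and the BCL2 family. They were chosen by name, with earlier results of these data known, and all 35 were found among the 38900 Ensembl gene IDs of the deposited table. RNA was measured in 6 libraries of hTERT RPE1 cells, an established human retinal pigment epithelial line immortalised with telomerase. In both groups the cells spent 5 days at 100% confluency, which takes them out of the cell cycle, and then 6 hours in fresh medium. This medium carried 0.1% DMSO, the solvent, for 3 libraries and 100 nM combretastatin A4 (CA4), a microtubule-destabilising drug of the colchicine site class, for the other 3. The question put to these genes was whether the transcriptional output of p53 differed between the 2 groups.

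p53 is a transcription factor that is made and destroyed continuously in unstressed cells. DNA damage and other stresses stabilise it, and it then binds a response element made of a pair of 10-base motifs near or inside its target genes. Its targets halt the cell cycle, repair DNA, adjust metabolism, prime the cell for apoptosis and, through MDM2, feed back on p53 itself. Several of them also answer to other factors, such as FOXO, NF-kB, ATF4 and CHOP or interferon, and are not specific to p53.

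The libraries held 19524936 to 22538004 recovered reads. Values are normalized counts, the reads of a gene divided by its library's scaling factor, so that 1 read is worth 0.935 to 1.12 normalized counts. The labels do not say that the numbered replicates came from separate experiments, so p-values measure the spread between these libraries. Of 8 markers of mature retinal pigment epithelium, TTR was listed at 0 in all 6 libraries. A listed 0 is 0 recovered reads, and does not exclude an expected count of up to 3 reads in each. TYR, RLBP1, PMEL and RPE65 reached at most 40.8 normalized counts. BEST1 lay between 42.5 and 99.7, and OTX2 and MITF between 226 and 1085. OTX2 fell in CA4 (log2 fold change -1.11, limma adjusted p = 0.0158), and MITF had a log2 fold change of -0.98 that passed in DESeq2 (adjusted p = 0.0117) and not in limma (adjusted p = 0.100). The 8 markers summed to 1128 to 1835 normalized counts in DMSO and 636 to 1026 in CA4. Of 4 markers of simple epithelium and cultured lines none passed in limma, while KRT18 (log2 fold change 0.46, DESeq2 adjusted p = 0.0133) and FN1 (0.24, DESeq2 adjusted p = 0.0398) were higher in every CA4 library. The sum of the 4, most of it FN1, was 1093975 to 1175678 in DMSO and 1287065 to 1344754 in CA4. Of 5 markers of blood and endothelium, CD3E was at 0 in all 6 libraries, PTPRC reached at most 10.6, and none of the 3 tested passed in limma. The 5 markers summed to 1155 to 1501 in DMSO and to 1321, 1286 and 2207 in replicates 1, 2 and 3 of CA4. PECAM1 was higher in every CA4 library (log2 fold change 0.74, limma adjusted p = 0.215). CD68 was lower in every CA4 library (-0.34, limma adjusted p = 0.279), and the groups overlapped in CDH5 (0.64, limma adjusted p = 0.374). PECAM1 and CDH5 were highest in CA4 replicate 3, at 916 and 576. Other genes cover 85.8% of the CD68 exon bases. The part of these markers in the results on p53 targets was not tested. In bulk RNA, a higher level per cell and more cells with the transcript cannot be told apart.

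GADD45A and TNFRSF10B rose in CA4 and CCNG2 fell, and the other 32 members did not pass the test. These 3 calls are 8.57% of the 35 members, beside 4.94% of all 13928 genes tested (limma's moderated test on log2(normalized count + 1), Benjamini-Hochberg adjusted p under 0.05 over all genes tested). By direction, 2 of 35 members rose, where 2.97% of all genes did, and 1 fell, where 1.97% did. The median log2 fold change of the members was 0.014, beside -0.0082 for all genes tested, with 19 members above 0 and 16 below. All 35 passed the filter on low values, a mean of 10 normalized counts, with means from 31.9 for TNFRSF10A to 16699 for PLK2.

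CDKN1A, which encodes the cyclin-dependent kinase inhibitor p21 and is the best known p53 target, gives the scale for these values. It stood at 4763, 4712 and 4346 normalized counts in replicates 1, 2 and 3 of DMSO and at 9904, 9794 and 10928 in CA4. The groups were far apart, with a log2 fold change of 1.15 (SE 0.08, 95% interval 0.96 to 1.33, limma adjusted p = 0.00154). For 31 of the 35 members the whole 95% interval lay below 0.96, the lower end of that of CDKN1A. The same 31, or 88.6%, had an interval that stayed below a 2-fold rise, beside 85.0% of all genes tested. The 4 others were GADD45A, AEN, FAS and TNFRSF10A.

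**Figure D1:**
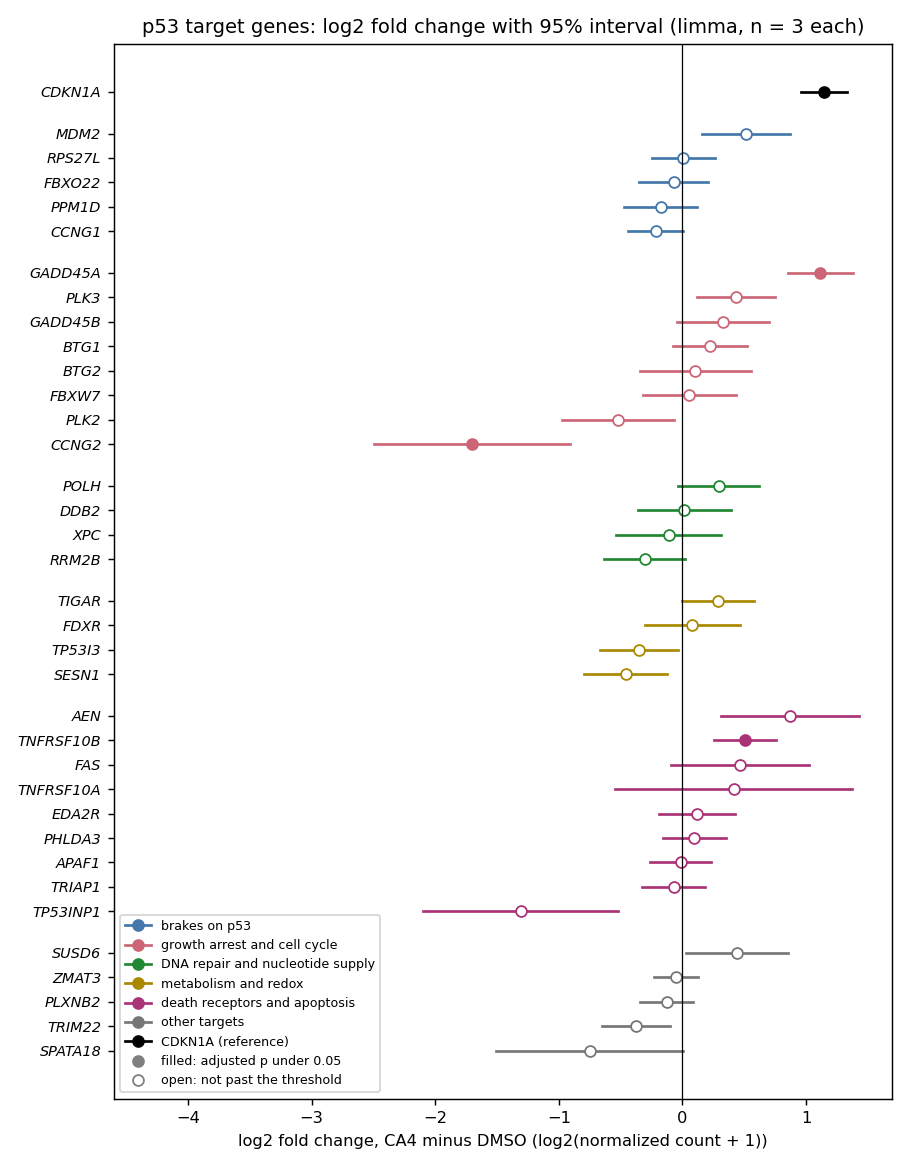
Log2 fold change (CA4 minus DMSO) of the 35 p53 targets by role, with CDKN1A at the top. Points are limma estimates from 3 libraries a group, lines are 95% intervals, and filled points passed an adjusted p of 0.05. GADD45A is the member nearest to CDKN1A on the right, most points sit within 0.5 of 0, and CCNG2 and TP53INP1 lie far to the left.

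The sequences below are shown because they are stretches around the gene start that hold the p53 motif in members of this set, none of which passed the test. RefSeq promoter windows (GRCh38.p14), each from 250 bases before to 50 after a gene start, were found for 27 of the 35 members. They were searched for the p53 decamer, the 10-base unit of the response element with a central C, A or T, A or T, G, which reads the same on both strands. At least 1 window held it in 7 of these 27 members, 25.9%, beside 8.06% of the 27305 genes with a window. A match describes letters and not a bound site. Capitals mark the decamer, and each sequence runs 5′ to 3′ on the strand of its gene.
PLK2, chr5:58460189-58460238, minus strand: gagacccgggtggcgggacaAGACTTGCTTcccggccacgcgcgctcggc
SESN1, chr6:109009008-109009057, minus strand: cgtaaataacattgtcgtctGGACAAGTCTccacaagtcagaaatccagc
FAS, chr10:88991289-88991338, plus strand: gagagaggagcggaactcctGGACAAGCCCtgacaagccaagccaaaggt
DDB2, chr11:47214975-47215004, plus strand: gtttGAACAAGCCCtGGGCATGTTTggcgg
RPS27L, chr15:63157507-63157556, minus strand: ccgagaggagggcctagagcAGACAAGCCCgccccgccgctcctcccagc
AEN, chr15:88621286-88621335, plus strand: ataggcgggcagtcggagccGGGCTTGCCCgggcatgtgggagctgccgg
FDXR, chr17:74872995-74873025, minus strand: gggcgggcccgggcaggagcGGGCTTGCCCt
DDB2 carries 2 decamers 1 base apart, just past the gene start in its RefSeq window, and the others carry 1 each before the gene start in theirs. A gene can have several starts, and the one used by a window can lie inside the gene's full span, as for SESN1 and FAS. None of the 7 passed limma's test, where 4.94% of all genes did. At an unadjusted p under 0.05 AEN, PLK2 and SESN1 passed (23.0% of all genes), and DESeq2 called AEN (11.6% of all genes). Their log2 fold changes ran from -0.52 for PLK2 to 0.87 for AEN, with DDB2 at 0.014 and RPS27L at 0.0067. Of the 3 called members only CCNG2 had a window, which held no decamer, and GADD45A and TNFRSF10B are among the 8 members whose windows were not analysed here.

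Among the genes that restrain p53, none of 5 passed limma's test, where 4.94% of all genes did. Of the 5, 1 had an unadjusted p under 0.05 (23.0% of all genes), 0 passed in edgeR (4.62%) and 1 in DESeq2 (11.6%). MDM2, the ubiquitin ligase that marks p53 for destruction and is induced by it, lies at chr12:68808176-68850686 (GENCODE 29, GRCh38). It stood at 1137, 1154 and 1238 normalized counts in replicates 1, 2 and 3 of DMSO and at 1419, 1555 and 2142 in CA4. All CA4 libraries lay above all DMSO libraries, and replicate 3 of CA4 stood apart from the other two. The log2 fold change was 0.51 (SE 0.15, 95% interval 0.16 to 0.87), which did not pass in limma (adjusted p = 0.0981) or edgeR (adjusted p = 0.0959) and passed in DESeq2 (adjusted p = 0.0206). Without CA4 replicate 3 its log2 fold change was 0.34.

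The other genes of this group were close to level. PPM1D, a phosphatase that switches off p53 signalling, stood at 254, 274 and 276 normalized counts in DMSO and 222, 260 and 230 in CA4, and the groups overlapped. CCNG1, a cyclin that recruits a phosphatase to MDM2, stood at 1132, 1111 and 963 in DMSO and 944, 898 and 912 in CA4, so that CA4 lay entirely but narrowly below. Its log2 fold change of -0.22 (SE 0.10) did not pass (limma adjusted p = 0.235). RPS27L, a ribosomal protein paralog among the most p53-specific targets, averaged 1437 ± 123 and 1445 ± 146 in DMSO and CA4 (SD, n = 3 each). Its log2 fold change was 0.0067, with a 95% interval of -0.25 to 0.26 and a sign that flips when libraries are scaled to the same total. FBXO22, a ubiquitin ligase subunit, had a log2 fold change of -0.07 (SE 0.12).

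Of the 8 growth arrest and cell cycle genes 2 passed, in opposite directions (4.94% of all genes passed). At an unadjusted p under 0.05 there were 4 (23.0% of all genes), in edgeR 2 (4.62%) and in DESeq2 3 (11.6%). GADD45A, a stress sensor that binds PCNA and the CDK1 complex, lies at chr1:67685061-67688338. It stood at 1481, 1117 and 1225 normalized counts in replicates 1, 2 and 3 of DMSO and at 2691, 2778 and 2770 in CA4. Every CA4 library was far above every DMSO library. The log2 fold change was 1.12 (SE 0.11, 95% interval 0.86 to 1.38, limma adjusted p = 0.0057), a 2.17-fold rise, and the call was kept without each of the 6 libraries in turn. Its paralog GADD45B did not pass, with 1495, 1884 and 2238 in DMSO, 2009, 2471 and 2503 in CA4 and a log2 fold change of 0.33 (limma adjusted p = 0.275, SE 0.16). The groups overlapped in GADD45B.

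CCNG2, an unconventional cyclin that is high in resting cells and is also a FOXO target, lies at chr4:77157151-77433388. It went the other way. It stood at 719, 1198 and 1213 normalized counts in replicates 1, 2 and 3 of DMSO and at 203, 499 and 296 in CA4. The groups did not overlap, and replicate 1 was the lowest library of each group. The log2 fold change was -1.70 (SE 0.34, 95% interval -2.49 to -0.91, limma adjusted p = 0.0356), a level 0.307 times that of DMSO. The call was lost without DMSO replicate 2, DMSO replicate 3, CA4 replicate 1 or CA4 replicate 3, with adjusted p up to 0.139, and the log2 fold change stayed between -2.04 and -1.40.

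The remaining 5 genes of this role did not pass. PLK2 and PLK3, polo-like kinases induced by stress and by serum, had log2 fold changes of opposite sign. PLK2 stood at 16134, 22039 and 20562 normalized counts in DMSO and 10355, 17258 and 13844 in CA4, with overlap between the groups (log2 fold change -0.52, SE 0.20, limma adjusted p = 0.168). PLK3 stood at 772, 705 and 752 in DMSO and 1049, 828 and 1158 in CA4, without overlap (log2 fold change 0.43, SE 0.13, limma adjusted p = 0.109), and passed without CA4 replicate 2 (limma adjusted p = 0.0475). The antiproliferative genes BTG1 and BTG2 had log2 fold changes of 0.22 (SE 0.13) and 0.10 (SE 0.19). FBXW7, a ubiquitin ligase subunit that degrades cyclin E, had one of 0.05 (SE 0.16), a sign that flips when libraries are scaled to the same total.

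**Figure D2:**
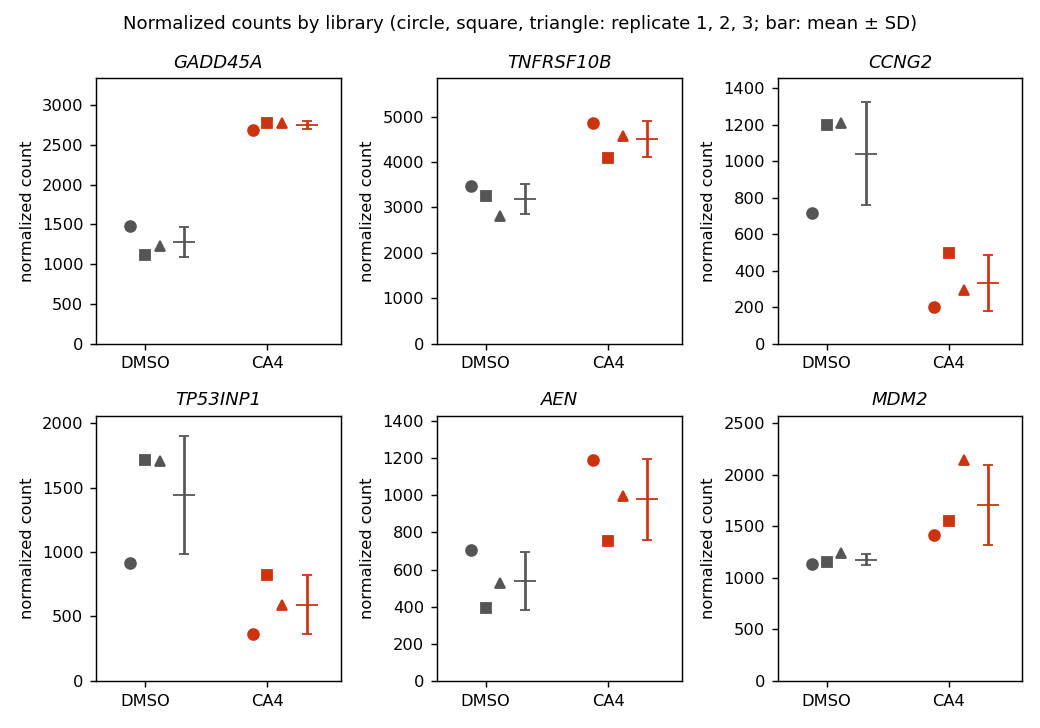
Normalized counts (vertical axis, from 0) of 6 members in each library, with symbols for the replicate number and bars for the mean ± SD of 3 libraries. GADD45A and TNFRSF10B are higher in every CA4 library, CCNG2 and TP53INP1 are lower in every CA4 library with replicate 1 lowest in each group, and AEN and MDM2 are higher in every CA4 library without passing the limma test.

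Among the death receptors and apoptosis genes, 1 of 9 passed, beside 4.94% of all genes. At an unadjusted p under 0.05 there were 3 (23.0% of all genes), in edgeR 1 (4.62%) and in DESeq2 3 (11.6%). TNFRSF10B encodes DR5, a receptor for the death ligand TRAIL that is induced by p53 and, under protein folding stress, by CHOP. It stood at 3485, 3253 and 2817 normalized counts in replicates 1, 2 and 3 of DMSO and at 4871, 4082 and 4579 in CA4. The groups did not overlap, and the log2 fold change was 0.50 (SE 0.11, 95% interval 0.25 to 0.75, limma adjusted p = 0.0436), a 1.42-fold rise. The call was kept without DMSO replicate 1 and lost without any of the other 5 libraries (limma adjusted p 0.0521 to 0.139), and it was also lost under scaling to the same total (limma adjusted p = 0.0793). Its neighbour in the family TNFRSF10A, which encodes DR4, was near the lower end of measurement, with 44.4, 26.2 and 15.2 in DMSO and 38.7, 32.5 and 34.6 in CA4. FAS, another death receptor, stood at 1011, 590 and 668 in DMSO and 1307, 1008 and 804 in CA4, and the groups overlapped (log2 fold change 0.47, SE 0.24, limma adjusted p = 0.293).

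Both AEN and TP53INP1 had larger fold changes than TNFRSF10B and a wider spread, and did not pass. AEN, an exonuclease that digests DNA and RNA during apoptosis, stood at 704, 393 and 525 normalized counts in replicates 1, 2 and 3 of DMSO and at 1191, 755 and 994 in CA4. Every CA4 library lay above every DMSO library, and replicate 1 was the highest of each group (log2 fold change 0.87, SE 0.24, limma adjusted p = 0.0817). TP53INP1, a nuclear and autophagy protein that promotes p53-dependent death, stood at 914, 1714 and 1704 in DMSO and at 364, 820 and 586 in CA4. Every CA4 library lay below every DMSO library, and replicate 1 was the lowest of each group, as in CCNG2 (log2 fold change -1.31, SE 0.34, limma adjusted p = 0.0711). Without DMSO replicate 1 both passed, AEN with a log2 fold change of 1.08 (limma adjusted p = 0.0364) and TP53INP1 with one of -1.61 (limma adjusted p = 0.032). DESeq2 on the recovered reads called both with all libraries (adjusted p = 0.00683 and 7.35e-04), against a background of 11.6% of genes called by DESeq2.

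The rest of this group was close to level. APAF1, the scaffold of the apoptosome, averaged 923 ± 99.1 in DMSO and 910 ± 36.6 in CA4. EDA2R, a receptor for ectodysplasin A2, averaged 186 ± 11.5 and 203 ± 5.54. PHLDA3, an inhibitor of AKT, averaged 1907 ± 96.7 and 2049 ± 273. TRIAP1, a small inhibitor of apoptosis, averaged 375 ± 22.9 and 357 ± 7.73 (SD, n = 3 in each group). The 95% intervals of these 4 genes all lay within 0.43 of 0 on the log2 scale, and the sign of PHLDA3 flips under scaling to the same total.

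None of the 4 genes of DNA repair and nucleotide supply passed limma's test (4.94% of all genes), 0 had an unadjusted p under 0.05 (23.0%), and 0 passed in edgeR (4.62%) or DESeq2 (11.6%). RRM2B, the ribonucleotide reductase subunit that p53 induces in resting cells, stood at 1054, 849 and 795 normalized counts in replicates 1, 2 and 3 of DMSO and at 633, 780 and 761 in CA4. The CA4 libraries lay just below the DMSO libraries, with a log2 fold change of -0.31 (SE 0.14, 95% interval -0.63 to 0.02, limma adjusted p = 0.244). POLH, the polymerase that copies past ultraviolet lesions, had a log2 fold change of 0.29 (limma adjusted p = 0.271, SE 0.14). DDB2 and XPC, which recognise damaged DNA in nucleotide excision repair, had log2 fold changes of 0.014 (SE 0.16) and -0.11 (SE 0.18), and the sign of DDB2 flips under scaling to the same total or the same 75th percentile. DDB2, whose 2 adjacent decamers are printed above, stood at 154, 132 and 120 in DMSO and 136, 135 and 136 in CA4. In GENCODE 29, 30.4% of the exon bases of XPC also lie in other genes, so part of its reads may belong to them.

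The metabolic targets also gave no call among 4 genes (4.94% of all genes were called), with 2 at an unadjusted p under 0.05 (23.0%), 0 in edgeR (4.62%) and 0 in DESeq2 (11.6%). SESN1, a sestrin that restrains mTORC1 and answers to FOXO as well as p53, stood at 283, 323 and 341 normalized counts in replicates 1, 2 and 3 of DMSO and at 205, 226 and 259 in CA4. The groups did not overlap (log2 fold change -0.46, SE 0.14, limma adjusted p = 0.112). TP53I3, a quinone reductase-like enzyme, was also lower in every CA4 library, with 806, 1076 and 846 in DMSO and 652, 781 and 695 in CA4 (log2 fold change -0.35, SE 0.14, limma adjusted p = 0.181). TIGAR, which lowers glycolytic flux, was higher in every CA4 library, with 386, 328 and 413 in DMSO and 455, 438 and 479 in CA4 (log2 fold change 0.29, SE 0.12, limma adjusted p = 0.22). In GENCODE 29, 45.6% of the exon bases of TIGAR are shared with other genes. FDXR, the mitochondrial ferredoxin reductase and a widely used reporter of radiation response, averaged 143 ± 15.9 and 151 ± 13.5 (SD, n = 3 each). Its log2 fold change was 0.08 (SE 0.16), and the sign flips under scaling to the same total.

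Of the 5 other targets none passed limma's test (4.94% of all genes), 2 had an unadjusted p under 0.05 (23.0%), and 0 passed in edgeR (4.62%) or DESeq2 (11.6%). TRIM22, an antiviral ubiquitin ligase that interferon also induces, stood at 1139, 1417 and 1201 normalized counts in replicates 1, 2 and 3 of DMSO and at 903, 1068 and 918 in CA4. All CA4 libraries were lower (log2 fold change -0.38, SE 0.12, limma adjusted p = 0.109). SPATA18, which acts in mitochondrial quality control, was scarce, at 46.4, 35.5 and 55.1 in DMSO and 32.9, 19.1 and 29 in CA4 (log2 fold change -0.75, SE 0.33, limma adjusted p = 0.223). SUSD6, a membrane protein, had a log2 fold change of 0.44 (SE 0.18) with overlapping groups. PLXNB2, a semaphorin receptor, had one of -0.13 (SE 0.09). ZMAT3, an RNA-binding protein that regulates splicing and a specific p53 target, was the most tightly measured member, with 2849, 2894 and 3110 in DMSO, 2727, 2836 and 2974 in CA4 and a log2 fold change of -0.05 (SE 0.08, 95% interval -0.23 to 0.13).

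Across the set the CA4 and DMSO libraries did not overlap in 14 of 35 members, 40%, beside 27.7% of all genes tested. Of these 14, 6 were higher in CA4 (background 14.3%) and 8 lower (13.4%). The 95% interval lay within 2-fold in both directions for 28 of 35 members, 80%, beside 71.7% of all genes tested. At an unadjusted p under 0.05 there were 12 members, 6 in each direction, where the background was 23.0%. edgeR on the recovered reads called the same 3 members as limma (background 4.62%). DESeq2 called 7 of 35, these 3 with AEN, MDM2, PLK3 and TP53INP1 (background 11.6%). With the replicate number as a block 14 members passed, 8 higher and 6 lower, where the background was 17.2%, but the numbers are not known to pair the libraries. Leaving out DMSO replicate 1 raised the members past the threshold from 3 to 5, while the calls over all 13928 genes rose from 688 to 994. Leaving out DMSO replicate 2, DMSO replicate 3, CA4 replicate 1 or CA4 replicate 3 left 1 member, GADD45A, with 100, 81, 156 and 150 calls over all genes.

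**Figure D3:**
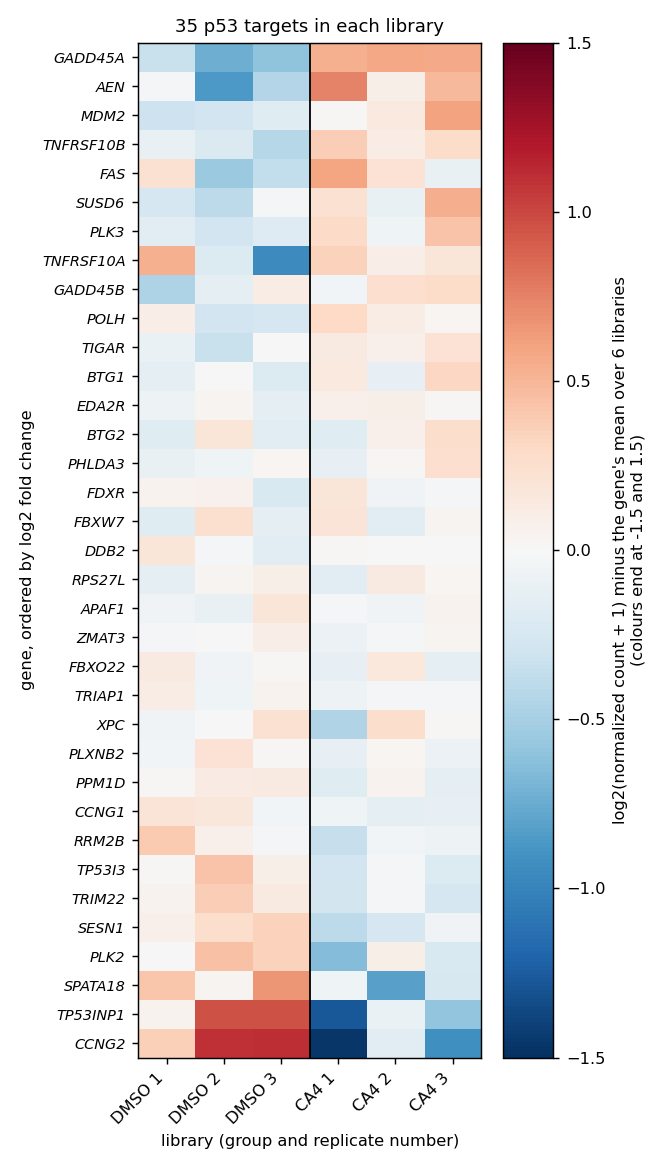
Each of the 35 members (rows, ordered by log2 fold change) in each library (columns), as log2(normalized count + 1) minus the gene's own mean over 6 libraries. Red is above and blue below that mean, and colours end at -1.5 and 1.5. GADD45A at the top and CCNG2 and TP53INP1 at the bottom part the groups, while the rows in the middle are near white in all 6 libraries.

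Levels per kilobase of exon in DMSO ran from 9.24 normalized counts for SPATA18 to 4106 for PLK2, with PLXNB2 next at 1591 and GADD45B, TNFRSF10B, GADD45A and PHLDA3 between 608 and 876. These are levels and not differences, and exons of all GENCODE 29 transcripts of a gene were merged for the length. In CA4 GADD45A reached 1327 per kilobase and PLK2 stood at 2898.

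Of the members, 11 have a well known inducer other than p53, which are GADD45A, GADD45B, BTG1, BTG2, PLK2, PLK3, CCNG2, SESN1, TNFRSF10B, FAS and TRIM22. The 3 calls are among them, 27.3% of the 11 beside 4.94% of all genes tested, but these 11 were listed with earlier results known and nothing about inducers is read from the count. Of the other 24 members, 0 passed limma's test (4.94% of all genes) and 0 passed in edgeR (4.62%). In DESeq2 3 passed, AEN, MDM2 and TP53INP1 (11.6% of all genes), and 5 had an unadjusted p under 0.05 (23.0% of all genes). These counts are near the shares over all genes, and the difference between the 11 and the 24 was not tested.

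A longer list of 50 further p53 targets was examined beside the members, of which 49 were found and 47 were abundant enough to test. There 6 rose and 1 fell, 14.9% of those tested against the background of 4.94%. The median log2 fold change was 0.14, beside -0.0082 for all genes tested, with 32 genes above 0 and 15 below. The groups did not overlap in 17 of the 47, 36.2%, beside 27.7% of all genes tested. Of these 17, 13 were higher in CA4 (background 14.3%) and 4 lower (13.4%). The shift of this list was not tested. edgeR called 7 (background 4.62%) and DESeq2 10 (background 11.6%), among them SESN2, ORAI3 and STEAP3 beside the 7 of limma. The highest was LIF, a cytokine, at 7294, 3955 and 3028 normalized counts in replicates 1, 2 and 3 of DMSO and 20025, 14775 and 16833 in CA4 (log2 fold change 1.94, SE 0.30, limma adjusted p = 0.0168). DRAM1, a lysosomal protein that links p53 to autophagy, stood at 1317, 860 and 706 in DMSO and 3041, 2880 and 2663 in CA4 (log2 fold change 1.62, SE 0.21, limma adjusted p = 0.0117). IER5, an immediate early gene, rose with a log2 fold change of 0.79 (limma adjusted p = 0.0251, SE 0.14). PTP4A1, a phosphatase, SLC12A4, a potassium chloride cotransporter, and TEP1, a telomerase-associated protein, rose by 0.69, 0.48 and 0.48 on the log2 scale, with adjusted p of 0.0334, 0.0161 and 0.0375 in limma. Another gene of the same strand covers 79% of the PTP4A1 exon bases in GENCODE 29, which makes its value uncertain. With each of the 6 libraries left out in turn, the call of DRAM1 was kept 5 times, those of LIF, IER5, PTP4A1, SLC12A4 and TLR3 2 times each and that of TEP1 0 times.

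TLR3, a receptor for double-stranded RNA, fell, with 122, 108 and 155 normalized counts in DMSO and 45.4, 67.3 and 45.7 in CA4 (log2 fold change -1.27, SE 0.25, limma adjusted p = 0.033). SESN2, a sestrin that ATF4 also induces, did not pass in limma (log2 fold change 0.65, SE 0.19, adjusted p = 0.0962) and passed in DESeq2 (adjusted p = 0.0390). ORAI3, a calcium channel subunit, and STEAP3, a metal reductase, had log2 fold changes of -0.69 and -0.36 and did not pass in limma with all libraries and passed in DESeq2 (adjusted p = 0.00997 and 0.0320). Another gene of the same strand covers 52.9% of the ORAI3 exon bases, so its value is uncertain. GDF15, a secreted stress cytokine, had a log2 fold change of 0.56 (limma adjusted p = 0.504, SE 0.45).

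Of 22 genes that regulate p53 or are related to it, 21 were tested and 0 passed limma's test (4.94% of all genes), 0 in edgeR (4.62%) and 0 in DESeq2 (11.6%), and 1 had an unadjusted p under 0.05 (23.0%). MDM4, which binds p53 and blocks its activity, had a log2 fold change of 0.03 (SE 0.18) and overlapping groups. The median of the 21 genes was 0.017, and 20 of the 21 had a 95% interval within 2-fold. These are transcript levels, and the amount of p53 protein was not measured.

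**Figure D4:**
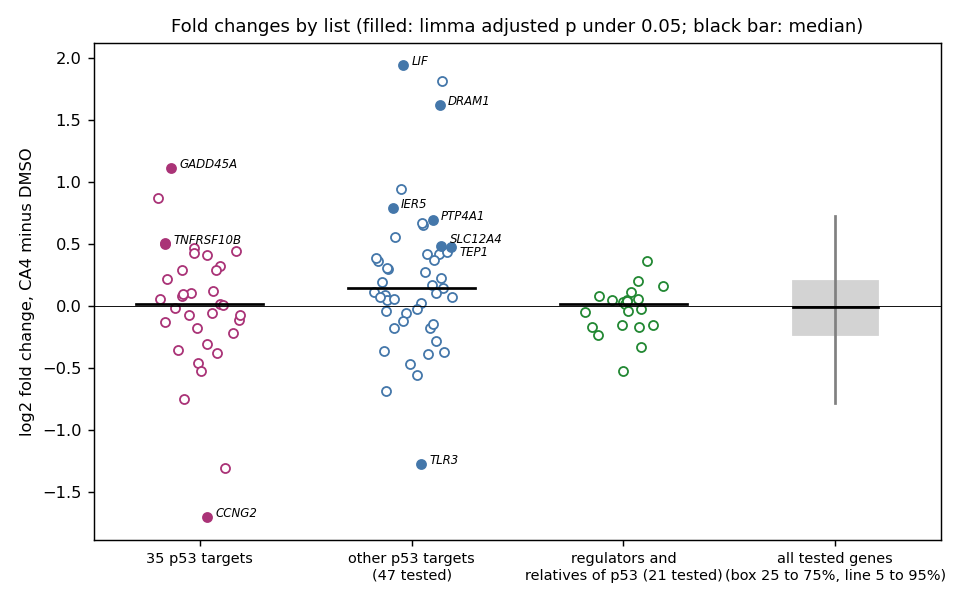
Log2 fold changes (vertical axis) of the 35 p53 targets, 47 further p53 targets and 21 regulators and relatives of p53, with all tested genes summarised at the right. Each point is 1 gene, filled where the limma adjusted p is under 0.05, and black bars are medians. The medians are 0.014, 0.14 and 0.017 in the order of these lists, beside -0.0082 for all tested genes. Of the 47 further targets, 32 lie above 0 and 15 below. The named genes are the calls.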

How the data were processed

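The table deposited by the authors holds a signal read here, from its name and values, as normalized counts: the reads of a gene divided by 1 scaling factor per library. The submitters' processing notes name Trim Galore 0.6.6, FastQC 0.12.1, Salmon 1.8.0, STAR 2.7.9a, DESeq2 1.44.0 and the build GRCh38. The annotation release and use of strand are not given in the sources used here. All non-zero values (100%) were whole multiples of 1 step within a tolerance of 0.01, which gave whole reads (possibly rounded estimates).

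The 13928 genes averaging 10 normalized counts or more were tested as log2(normalized count + 1), a scale that understates changes of low genes. limma 3.58.1 in R 4.3.3 fitted treatment alone, with a variance trend, and p-values were two-sided and adjusted over all tested genes. Alternatives included edgeR 4.0.16 and DESeq2 1.42.0 on recovered reads, which called 643 and 1613 genes against 688. The fits were tested on simulated data. Symbols came from a gene name table, and exon overlaps from GENCODE 29.

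The members and lists were chosen with earlier results of these data known. All members are accounted for. Values by library are given for those past the threshold and for the smallest adjusted p of each role, and of the other lists up to 8 called genes are named, with MDM4. SESN2, GDF15, ORAI3, STEAP3 and the other members shown by library were chosen after their values were seen. In 7 of 35 members at least 10% of exon bases lie in other genes (BTG1, FBXO22, PHLDA3, TIGAR, TNFRSF10A, TRIM22, XPC). One further gene of the lists is not reported here.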

Additional observations from a re-analysis of the deposited data

How the results depend on the processing

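With 3 libraries a group, only large or tightly measured changes could pass. Against 688 genes and 3 members past the threshold, there were 103 genes and 1 member without the variance trend, 1613 genes and 7 members in DESeq2, and 2397 genes and 14 members with the replicate number as a block. Same-numbered libraries had correlated deviations of 0.202, 0.159 and 0.0588, which did not all exceed 0.1, so the libraries were not treated as paired. Every library correlated best with its own number, except CA4 replicate 3 (0.0741 with DMSO replicate 2), which is a hint from the data and not the design. Leaving out 1 library gave 81 to 994 genes and 1 to 5 members, and a member median of -0.0179 to 0.0319. Scaling to the same total moved the median of all genes by -0.10 on the log2 scale and that of the members to -0.0865, and 34.79% of called genes were then higher in CA4, against 60.03%. GADD45A was called under all 17 alternatives. TNFRSF10B lost its call with no filter, under quantile normalization and under scaling to the same total, and CCNG2 and TNFRSF10B lost theirs without the variance trend.

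The sign reversed in 21 values of 8 members, none of them called, with log2 fold changes of at most 0.111 in size. Under scaling to the same total these were DDB2 (-0.0865), FBXW7 (-0.0467), FDXR (-0.0198), PHLDA3 (-0.0049) and RPS27L (-0.0946), under the same 75th percentile DDB2 (-0.0183) and RPS27L (-0.0259), and under quantile normalization RPS27L (-0.0435). With 1 library left out in turn, the range crossed 0 for APAF1 (-0.0731 to 0.0706), BTG2 (-0.0039 to 0.2228), DDB2 (-0.0686 to 0.1101), FBXW7 (-0.0295 to 0.1904), FDXR (-0.0148 to 0.1306), PHLDA3 (-0.0048 to 0.1829), RPS27L (-0.0651 to 0.0873) and XPC (-0.2717 to 0.0843). The causes were not tested.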
